A study of Mus musculus with 9 samples.

Results

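The genes described here encode the proteins of the cytosolic ribosome, measured in the yolk sac of mouse embryos that carry 2, 1 or no working copies of Rnh1. A gene was taken as a member when a probe set named it alone and its symbol is that of a cytosolic ribosomal protein (Rpl or Rps with a number, Rplp0 to Rplp2, or Rpsa), leaving out the Rps6k kinases, pseudogene symbols and Rps27l. This gave 60 of the 19933 genes named alone by at least 1 probe set (0.301%), 38 of the large and 22 of the small subunit. Of these, 58 were bright enough to be tested, 36 large and 22 small. The large subunit members Rpl39l and Rpl3l, paralogs restricted to certain tissues, were left out as too dim on the arrays, at mean log2 signals of 5.03 and 5.65.

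Each yolk sac sample was taken at embryonic day 9.5 from embryos of a mixed background of the strains SV 129 and C57BL/6, and its RNA was hybridised to 1 Affymetrix whole-transcript gene array. The 9 arrays held 3 wild-type samples (WT, Rnh1 +/+), 3 heterozygotes (HET, Rnh1 +/-) and 3 homozygous knockouts (KO, Rnh1 -/-), with no treatment. The product of Rnh1, ribonuclease inhibitor, sits in the cytosol and blocks secreted-type ribonucleases by tight binding. The labels leave out which stretch of Rnh1 was deleted, the sex of the embryos and whether a sample was a single sac or pooled. Nothing in them says that the 3 samples of a genotype are separate animals, so the spread behind every p-value is that between these samples, which may be technical.

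A ribosome is made of a small subunit, which reads the messenger RNA, and a large subunit, which joins amino acids. Each holds ribosomal RNA and a fixed set of proteins, most of them present once per particle, so cells keep the output of these genes in balance. Their mRNAs are among the most abundant in a growing cell. Most begin with a run of pyrimidines (C and T) at the 5′ end, the TOP motif, through which the kinase mTOR sets how strongly they are translated. The yolk sac at this stage makes the first red cells, which fill with globin and depend on ribosome supply, and loss of a copy of one of several ribosomal protein genes causes Diamond-Blackfan anemia in people.

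Among 84 protein-coding genes of RefSeq (assembly GRCm38.p6) that meet the symbol rule, 59 had a probe set of their own. A further 17 were named only together with other symbols, among them Rpl11, Rpl3, Rpl31, Rps24 and Rps27. The others were not analysed here. Ribosomal protein genes have many near-identical processed copies in the genome. Probes can share these sequences, so the assignment of a probe set to the named gene is uncertain for this family. Of the members, 21 had 1 probe set of their own and 39 had more, up to 14 for Rps12, and the probe set with the highest mean was used. In whole tissue, fewer cells of a type and less RNA per cell cannot be told apart.

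The starts of members that differed between genotypes are shown because a pyrimidine run there is what the family is known for. Each line gives 60 bases of the sense strand, 30 on either side of the transcription start in RefSeq's table (GRCm38.p6). The longest unbroken run of C and T within these 60 bases is in capitals. The runs of Rpl26 and Rpl37a end at the last base shown, so their lengths are lower limits. Shown are 8 of the 11 members called higher in KO in either comparison, those with 1 start among the windows used.
Rpl12, chr2:32961682-32961741, + strand: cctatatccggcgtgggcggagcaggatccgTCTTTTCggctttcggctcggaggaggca
Rpl24, chr16:55966245-55966304, + strand: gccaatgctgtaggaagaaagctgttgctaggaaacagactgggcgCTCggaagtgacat
Rpl26, chr11:68901536-68901595, + strand: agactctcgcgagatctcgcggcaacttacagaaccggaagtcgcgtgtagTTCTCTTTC
Rpl37a, chr1:72711230-72711289, + strand: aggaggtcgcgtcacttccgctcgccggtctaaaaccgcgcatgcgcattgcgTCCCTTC
Rps12, chr10:23787180-23787239, - strand: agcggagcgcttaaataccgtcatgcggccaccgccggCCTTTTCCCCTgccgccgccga
Rps28, chr17:33824533-33824592, - strand: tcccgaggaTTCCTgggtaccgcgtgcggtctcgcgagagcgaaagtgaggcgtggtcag
Rps9, chr7:3704011-3704070, + strand: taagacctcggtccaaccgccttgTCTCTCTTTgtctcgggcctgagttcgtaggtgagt
Rpsa, chr9:120127736-120127795, + strand: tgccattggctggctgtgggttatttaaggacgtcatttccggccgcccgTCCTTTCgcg

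In Rpl12 the run begins at base 2 after the start, in Rps12 at base 9, and in Rps9 at base -6, so the run and the listed start lay within a few bases of each other in some members and farther apart in others. Over the 56 windows of 48 members the longest run had a median of 7 bases, against 5 over all 32851 RefSeq windows. Runs of 10 bases or more were present in 18 of these windows (32.1%), against 10.9% of all windows. Among the 41 members with 1 start, the 8 printed above had a median run of 7 bases and the 33 members not called had one of 8. Runs of 10 bases or more were found in 1 of the 8 and 14 of the 33. The motif CCGGAAG, bound by ETS factors, was searched on both strands over the full 300 bases of each window. It was found in 33.9% of the members' windows and 8.86% of all windows, in 2 of the 8 and in 13 of the 33. These counts describe letters only and were not tested.

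Rnh1 itself followed the labels. Its log2 signal was 10.39, 10.42 and 10.32 for WT, 9.75, 9.75 and 9.77 for HET and 6.28, 6.78 and 6.87 for KO. The KO minus WT difference was -3.73 ± 0.13 (SE) on the log2 scale (limma adjusted p = 4.61e-06), KO minus HET was -3.11 (adjusted p = 2.37e-05) and HET minus WT was -0.62, which did not pass (adjusted p = 0.939) although the groups did not overlap. Where the probes lie relative to the deleted part is not known here. The array medians lay between 7.07 and 7.20, and the number of arrays limits the precision. Sex-linked transcripts differed between arrays. Xist, the RNA that coats the inactive X chromosome, was at 5.69, 10.65 and 11.00 for WT, 5.15, 10.56 and 5.76 for HET and 11.05, 11.06 and 11.67 for KO. Eif2s3y, on the Y chromosome, stood at 8.81, 8.15 and 4.34 for WT, 8.68, 7.87 and 8.48 for HET and 7.62, 7.27 and 4.41 for KO. The tissue label was checked with markers. All 9 visceral endoderm markers and all 7 measured primitive erythroid markers were above the dim range. Maternal tissue was removed according to the labels' protocol, but Prl8a2, a prolactin of the decidua, stood at 8.90 to 10.72 in WT, 6.50 to 9.75 in HET and 9.76 to 11.34 in KO.

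As a family, the ribosomal protein genes were slightly brighter on the KO arrays than on the others in the deposited values. Of 58 members 44 lay above WT, or 29 of 58 with each array centred on its median. Their median KO minus WT difference stood 0.07 above that of all genes. Centring shifts all genes of an array alike, so it cannot change that gap. The mean log2 signal over the 58 tested members was 11.52, 11.52 and 11.51 for WT, 11.49, 11.46 and 11.49 for HET and 11.62, 11.60 and 11.58 for KO. In these deposited values the KO arrays did not overlap with the other genotypes, and every HET array lay below every WT array. With each array centred on its median, the KO and WT arrays overlapped. As means ± SD (n = 3 arrays each) the deposited values were 11.51 ± 0.01 for WT, 11.48 ± 0.01 for HET and 11.60 ± 0.02 for KO. Members varied little between arrays of a genotype, with a median SD of 0.046, against 0.109 over all 13207 genes tested.

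**Figure D1:**
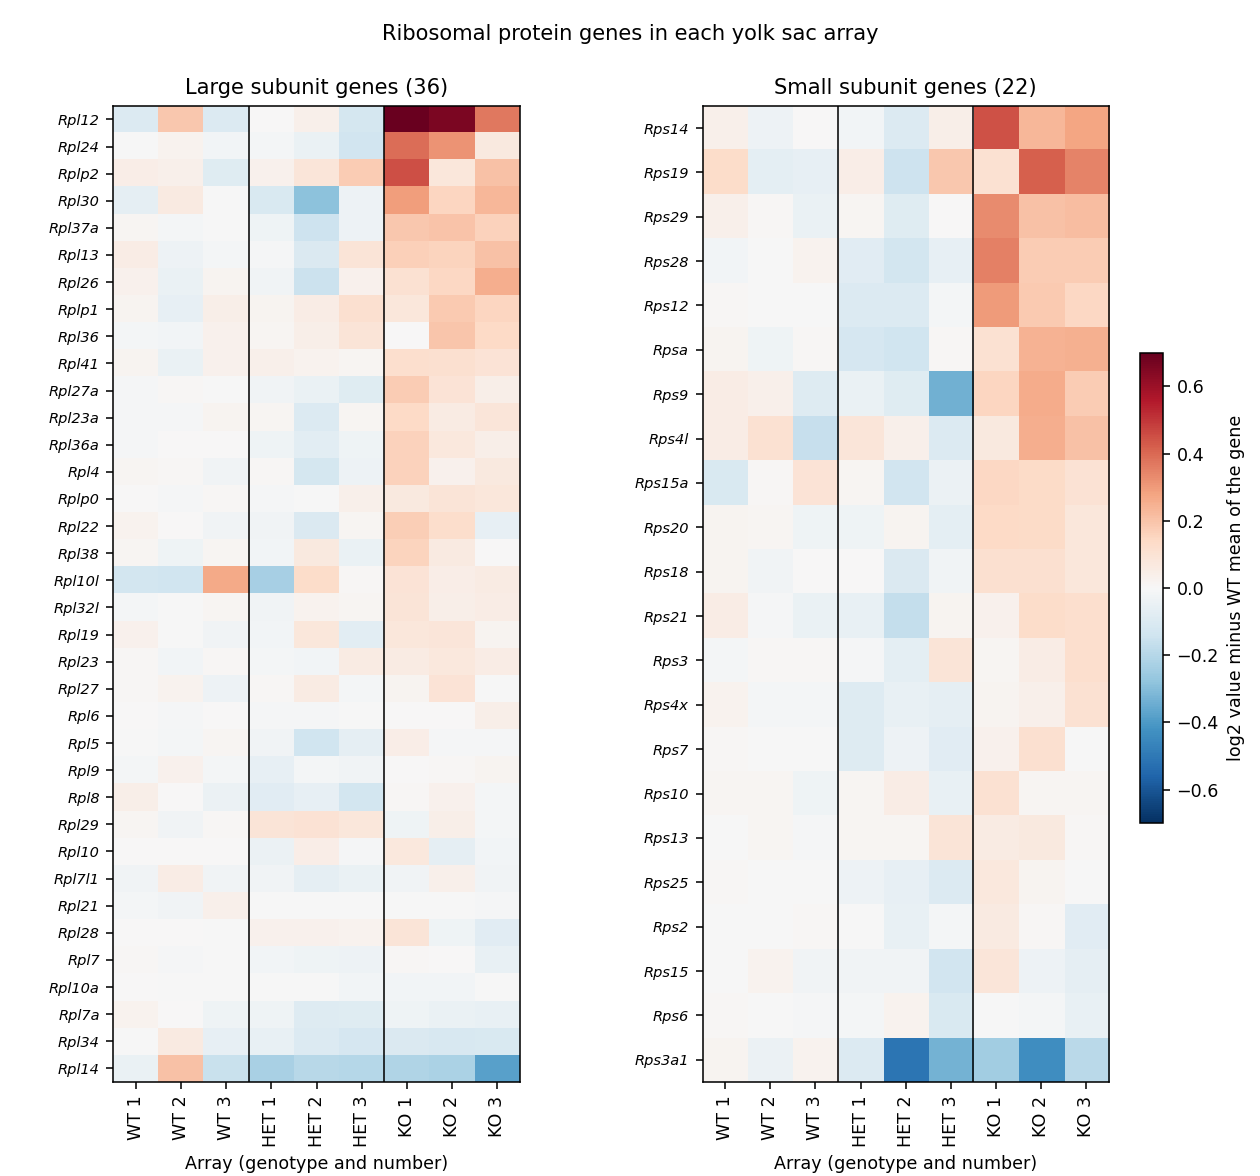
Each row is 1 of the 58 tested ribosomal protein genes and each column 1 array, and colour gives the log2 value minus the gene's WT mean, with large subunit genes on the left and small subunit genes on the right, sorted by KO minus WT. In these deposited values 44 of 58 rows are on average warmer in the KO columns (29 of 58 with centred arrays, which lower all genes alike), Rpl12 most of all (0.57 on average), while Rps3a1 (-0.29) and Rpl14 (-0.27) are coldest there and are also cold in the HET columns.

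KO against WT asked what differs when both copies of Rnh1 are missing. In KO 6 of the 58 members rose and 0 fell by limma at an adjusted p under 0.05. The 6 were Rpl12 and Rpl37a of the large subunit and Rps14, Rps29, Rps28 and Rps12 of the small one. This is 10.3% of the members, against 8.27% of all genes tested that were higher and 15.2% that were lower, so the share that rose was near the background. At an unadjusted p under 0.05, 15 members were higher and 2 lower, against 1938 and 3087 of the 13207 genes tested. The members' median difference was 0.07 on the log2 scale, and 44 of 58 lay above 0, against a median of -0.0046 and 49.1% above 0 over all genes. All 3 KO arrays lay above all 3 WT arrays in 26 members (44.8%), against 15.8% of all genes, and below them in 3 (5.17%), against 24.7%.

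These counts moved with the scaling of the arrays. With each array centred on its median the members' median was 0.0021, with 29 of 58 above 0, 2 that rose (Rpl12 and Rps14) and 2 that fell (Rpl14 and Rps3a1). After quantile normalization 11 rose and 0 fell, with a median of 0.11, and with cyclic loess 15 rose and 0 fell, with a median of 0.12. Relative to the median of all genes, the members stood 0.07 higher as deposited, 0.10 higher after quantile normalization and 0.12 higher with cyclic loess. Centring lowered the median of all genes to -0.07 and shifts all genes alike, so it leaves the deposited gap as it is. Over all genes the calls split into 1092 higher and 2009 lower as deposited, and into 577 and 2529 with centred arrays. They split into 1471 and 1939 of 13207 after quantile normalization, and into 1345 and 1886 of 13209 with cyclic loess. Without any 1 of the WT arrays the number of members that rose was 3, and without WT 3 or without HET 1 a single member fell (Rpl14 and Rps3a1, respectively).

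**Figure D2:**
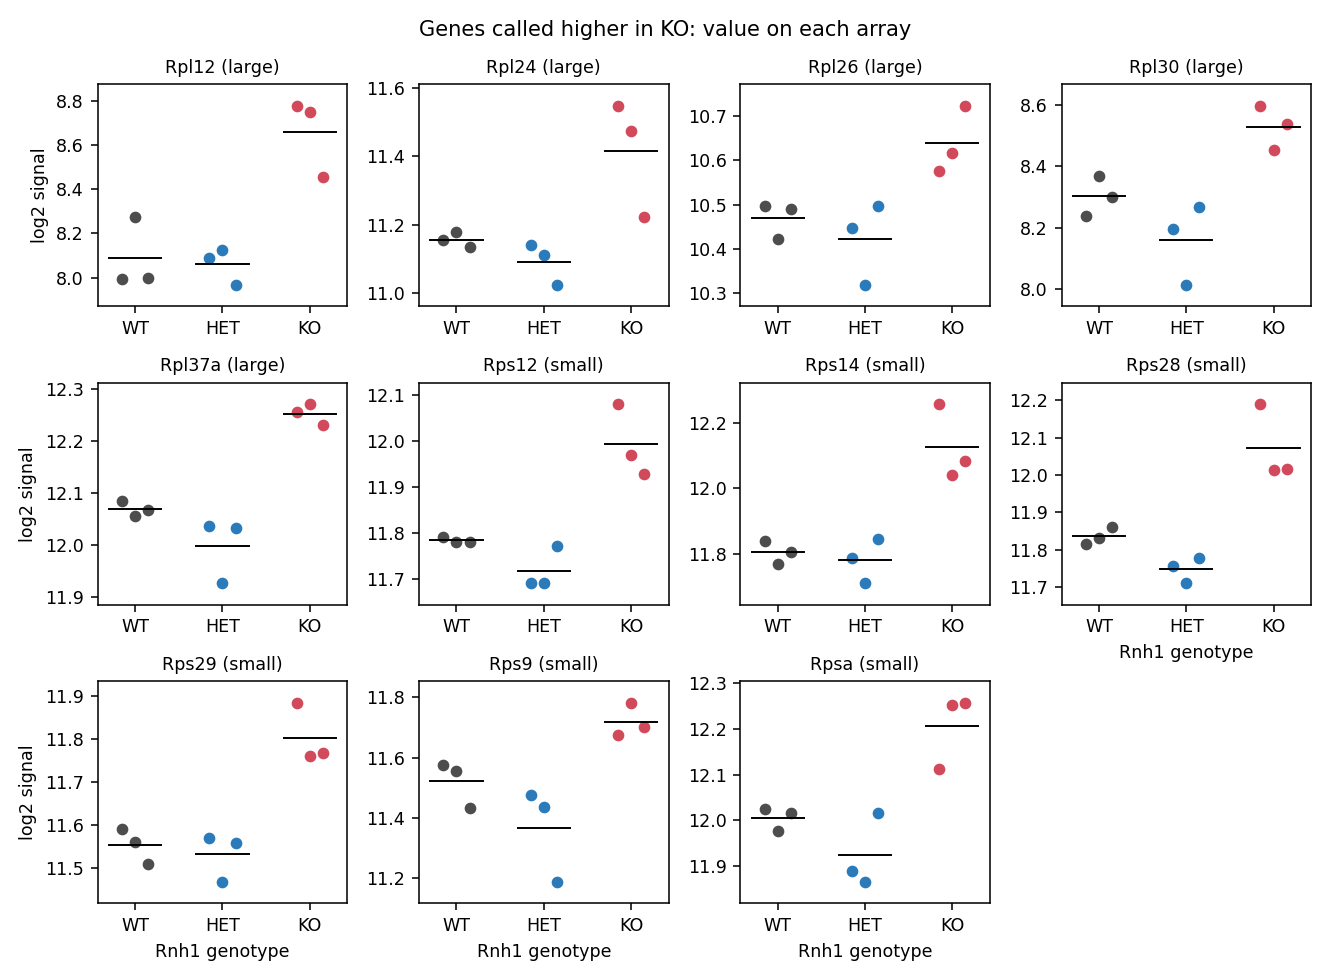
Points are single arrays and bars are genotype means of the log2 signal for the 11 genes called higher in KO against WT or against HET, each with its own axis, which does not start at 0. In all 11 panels the 3 KO points lie above the 3 HET points and above the 3 WT points.

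The large subunit is taken first, beginning with the P stalk, the flexible arm that recruits elongation factors. Rpl12, which sits at the base of the stalk, had a log2 signal of 7.99, 8.28 and 7.996 for WT, 8.09, 8.12 and 7.97 for HET and 8.78, 8.75 and 8.46 for KO. The KO arrays lay above all others, while WT and HET overlapped. Rpl12 rose by 0.57 ± 0.11 (SE) in KO against WT, a 1.49-fold higher signal (limma adjusted p = 0.00683), and by 0.60 ± 0.11 against HET (adjusted p = 0.00561). The first call held without any single array. The probe set behind it was not the only one for this gene. Another, which also names the small nucleolar RNA gene Snora65, stood 0.46 higher in KO than in WT and passed too when every probe set was tested by itself. The 7 that also name the predicted gene Gm32899, with mean signals from 12.47 to 13.01, differed by 0.03 to 0.06 and did not pass. When the brightest of all these represented the gene, the difference was 0.06 (adjusted p = 0.396).

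The other proteins of the stalk did not pass. Rplp0, the scaffold that carries the stalk, stood at 13.09, 13.08 and 13.10 for WT, 13.09, 13.09 and 13.13 for HET and 13.16, 13.19 and 13.17 for KO. The acidic stalk protein gene Rplp1 stood at 13.00, 12.92 and 13.02 for WT, 13.00, 13.03 and 13.09 for HET and 13.06, 13.16 and 13.13 for KO. Its partner Rplp2 stood at 6.92, 6.91 and 6.79 for WT, 6.90, 6.96 and 7.05 for HET and 7.32, 6.95 and 7.08 for KO. The Rplp2 signal was dim, with its WT values below the medians of the WT arrays (7.07 to 7.12). In all 3 genes, as in Rpl12, every KO array lay above every WT array. The same held for 44.8% of all members and 15.8% of all genes tested. The differences were 0.08 ± 0.05 for Rplp0 (limma adjusted p = 0.249), 0.14 ± 0.06 for Rplp1 (0.112) and 0.25 ± 0.09 for Rplp2 (0.0901). Rplp2 passed without KO 2 (0.33, adjusted p = 0.0432).

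Rpl37a, a small zinc-binding protein of the large subunit, had a log2 signal of 12.09, 12.05 and 12.07 for WT, 12.04, 11.93 and 12.03 for HET and 12.26, 12.27 and 12.23 for KO. The KO arrays stood clear of the rest, and each HET array lay below each WT array. Rpl37a rose by 0.18 ± 0.05 against WT (limma adjusted p = 0.0366) and by 0.25 ± 0.05 against HET (adjusted p = 0.0109). The call against WT was lost without any 1 of WT 1, WT 2, WT 3, HET 1, KO 2 and KO 3 (adjusted p from 0.0543 to 0.103) and with only these 2 genotypes in the fit (0.0646), and the call against HET held without any single array. The 3 probe sets that name Rpl37a with another symbol differed from WT by 0.21 to 0.23 and passed.

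Rpl24, which makes a bridge between the subunits, had a log2 signal of 11.16, 11.18 and 11.14 for WT, 11.14, 11.11 and 11.03 for HET and 11.55, 11.47 and 11.22 for KO. Rpl30, a small protein of the large subunit, stood at 8.24, 8.37 and 8.30 for WT, 8.20, 8.01 and 8.27 for HET and 8.60, 8.45 and 8.54 for KO. In both genes KO did not overlap with WT or HET, and KO 3 was the lowest KO array for Rpl24. Against WT neither passed, at 0.26 ± 0.08 for Rpl24 (limma adjusted p = 0.0531) and 0.23 ± 0.08 for Rpl30 (0.0642). Against HET both rose, Rpl24 by 0.32 ± 0.08 (adjusted p = 0.0249) and Rpl30 by 0.37 ± 0.08 (0.0110). Rpl24 lost that call without any 1 of the HET arrays, KO 1 or KO 2 (adjusted p from 0.0516 to 0.0743). Without KO 3 its difference from WT was 0.35 (adjusted p = 0.00959), and without HET 2 Rpl30 passed against WT (0.23, adjusted p = 0.0461). The 10 probe sets that name Rpl30 with 2 predicted genes ran the opposite way, at -0.14 to -0.10 against WT, and with the brightest of them the difference from HET was -0.04 (adjusted p = 0.837).

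At the exit tunnel, through which the new protein leaves, 5 of the 9 listed genes had a probe set of their own. Rpl26, which lines the tunnel's mouth, had a log2 signal of 10.50, 10.42 and 10.49 for WT, 10.45, 10.32 and 10.50 for HET and 10.58, 10.62 and 10.72 for KO. The KO arrays were the 3 highest. Rpl26 did not pass against WT (0.17 ± 0.07, limma adjusted p = 0.0995) and rose by 0.22 ± 0.07 against HET (adjusted p = 0.0475). That call was lost without any 1 of 7 arrays, namely WT 1, WT 2, WT 3, HET 1, HET 2, KO 2 and KO 3 (0.0573 to 0.159). The 3 probe sets naming Rpl26 with other symbols were brighter (10.88 to 11.36). They differed from WT by -0.0020 to 0.03 and from HET by 0.11 to 0.12, and none passed. With the brightest of them the difference from HET was 0.12 (adjusted p = 0.220). With every probe set tested by itself, the one used for Rpl26 did not pass against HET (0.0504). The others, Rpl4, Rpl19, Rpl22 and Rpl23a, stood 0.06 to 0.09 above WT and none passed.

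Of the 5S particle, which holds the p53 regulator Mdm2 in check when ribosome assembly fails, Rpl5 was measured by itself, at 12.44, 12.43 and 12.45 for WT, 12.42, 12.30 and 12.37 for HET and 12.49, 12.43 and 12.43 for KO. KO and WT overlapped (0.01 ± 0.05, 95% interval -0.11 to 0.13). Beside the peptidyl transferase centre, Rpl8 and Rpl10 differed from WT by 0.0070 and -0.0030, with 95% intervals of -0.11 to 0.12 and -0.13 to 0.12. Rpl13 stood 0.18 above WT, with all KO arrays above all WT arrays, and did not pass (adjusted p = 0.073 by limma), and it passed against HET without HET 3 (0.23, adjusted p = 0.0402).

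A few members of the large subunit lay lower in KO. Rpl14 had a log2 signal of 9.59, 9.84 and 9.48 for WT, 9.41, 9.45 and 9.44 for HET and 9.43, 9.42 and 9.26 for KO. Both mutant genotypes lay below all WT arrays and overlapped with each other. Its difference from WT was -0.27 ± 0.09 in KO (limma adjusted p = 0.0634) and -0.21 ± 0.09 in HET (0.939). It passed without WT 3 (-0.35, adjusted p = 0.0349). Rpl34 stood at -0.11 ± 0.05 (0.177), Rpl7a at -0.04 ± 0.05 and Rpl10a at -0.01 ± 0.05 in KO against WT, and none of these passed.

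In the small subunit, the head holds the messenger RNA at the decoding site. Of its 10 measured members 3 rose in KO against WT (30%) and 0 fell, with a median of 0.11, against 8.27% of all genes tested that rose, 15.2% that fell and a median of -0.0046. Rps29, a small zinc-binding protein, had a log2 signal of 11.59, 11.56 and 11.51 for WT, 11.57, 11.47 and 11.56 for HET and 11.88, 11.76 and 11.77 for KO. Rps28, which lies near the path of the messenger RNA, stood at 11.82, 11.83 and 11.86 for WT, 11.76, 11.71 and 11.78 for HET and 12.19, 12.01 and 12.02 for KO. Rps12 stood at 11.79, 11.78 and 11.78 for WT, 11.69, 11.69 and 11.77 for HET and 12.08, 11.97 and 11.93 for KO. In these 3 genes the KO arrays were the 3 highest and KO 1 the highest of them, and for Rps28 and Rps12 every HET array lay below every WT array.

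Rps29 rose by 0.25 ± 0.06 in KO against WT (limma adjusted p = 0.0175), Rps28 by 0.24 ± 0.06 (0.0260) and Rps12 by 0.21 ± 0.06 (0.0319). Against HET they rose by 0.27, 0.33 and 0.27 (adjusted p = 0.0131, 0.00752 and 0.0114). Against WT, the call on Rps29 was lost without WT 2 or WT 3 (0.0504 and 0.0574), that on Rps28 without WT 1 (0.0914), and that on Rps12 without any 1 of WT 1, WT 2, WT 3, HET 1, KO 1 and KO 2 (0.0501 to 0.0924). With Xist as a covariate the calls on Rps28 (0.0623) and Rps12 (0.0673) against WT were lost, as they were with only these 2 genotypes in the fit (0.0642 and 0.0687). Against HET, Rps29 lost its call without HET 2 (0.0549). Every probe set that names these genes alone passed against WT when probe sets were tested one by one. These were 4 of 4 for Rps29, 7 of 7 for Rps28 and 14 of 14 for Rps12, with differences from 0.21 to 0.31. Over all probe sets 7.64% were higher. Probe sets of a gene share its transcript, so they are not independent readings.

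Rps19, the gene most often mutated in Diamond-Blackfan anemia, had a log2 signal of 11.45, 11.25 and 11.26 for WT, 11.37, 11.18 and 11.51 for HET and 11.43, 11.74 and 11.67 for KO. KO 1 lay below WT 1, so the genotypes overlapped. The difference from WT was 0.29 ± 0.11 (limma adjusted p = 0.0831), and it passed without KO 1 (0.38, adjusted p = 0.0291). The 3 probe sets that name Rps19 with a pseudogene stood 0.09 to 0.16 above WT and did not pass, and all 3 passed against HET. Rps19 itself passed against HET without KO 1 (0.35, limma adjusted p = 0.0431). Of the 8 measured genes of this anemia 2 rose in KO against WT (Rps28 and Rps29, against 8.27% of all genes) and 3 against HET (Rps28, Rps29 and Rpl26, against 8.17%), and 0 fell in either comparison. With so few genes these shares are a description of the list, and the call on Rpl26 was lost with its shared probe sets added. The other head proteins Rps3, Rps10, Rps15, Rps18, Rps20 and Rps25 differed from WT by -0.0023 to 0.12 and did not pass.

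The body and platform of the small subunit bear on initiation and on the entry and exit of the messenger RNA. Here 1 of 11 measured members rose against WT (9.09%), near the 8.27% of all genes, and 3 of 11 against HET (27.3%), against 8.17% of all genes. Rps14, a platform protein whose human gene lies in the region lost in the 5q- blood disorder, had a log2 signal of 11.84, 11.77 and 11.81 for WT, 11.79, 11.71 and 11.85 for HET and 12.25, 12.04 and 12.08 for KO. KO lay above all other arrays, with KO 1 the highest. Rps14 rose by 0.32 ± 0.07 against WT, a 1.25-fold higher signal (limma adjusted p = 0.0124), and by 0.34 ± 0.07 against HET (adjusted p = 0.00956). Its calls held without any single array, and the gene's second probe set stood 0.41 above WT and passed too.

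Rpsa, the laminin receptor homologue of the platform, had a log2 signal of 12.02, 11.98 and 12.02 for WT, 11.89, 11.87 and 12.02 for HET and 12.11, 12.25 and 12.26 for KO. Rps9, at the entry of the messenger RNA, stood at 11.57, 11.56 and 11.43 for WT, 11.48, 11.43 and 11.19 for HET and 11.67, 11.78 and 11.70 for KO. KO did not overlap with the other genotypes in either gene. Against WT they stood at 0.20 ± 0.06 for Rpsa (limma adjusted p = 0.0518) and 0.20 ± 0.08 for Rps9 (0.118). Against HET Rpsa rose by 0.28 ± 0.06 (adjusted p = 0.0155) and Rps9 by 0.35 ± 0.08 (0.0181). Rpsa lost that call without HET 1 or HET 2 (0.0615 and 0.0622), and Rps9 without KO 2 (0.0559). Rpsa passed against WT without HET 3 (0.20, adjusted p = 0.0467) or without KO 1 (0.25, adjusted p = 0.0216).

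Rps3a1, a protein of the platform side that touches initiation factors, had a log2 signal of 10.41, 10.35 and 10.42 for WT, 10.29, 9.88 and 10.06 for HET and 10.15, 9.96 and 10.20 for KO. All mutant arrays lay below all WT arrays. The difference from WT was -0.29 ± 0.11 in KO (limma adjusted p = 0.0788) and -0.31 ± 0.11 in HET (unadjusted p = 0.0158, adjusted p = 0.939). Without HET 1 the KO difference passed (-0.29, adjusted p = 0.0469). The 2 probe sets that name Rps3a1 together with Tapbp stood 0.10 and 0.11 above WT in KO and did not pass. Rps6, the substrate of the S6 kinases, Rps2 and Rps15 differed from WT by -0.02, -0.0022 and -0.0023.

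**Figure D3:**
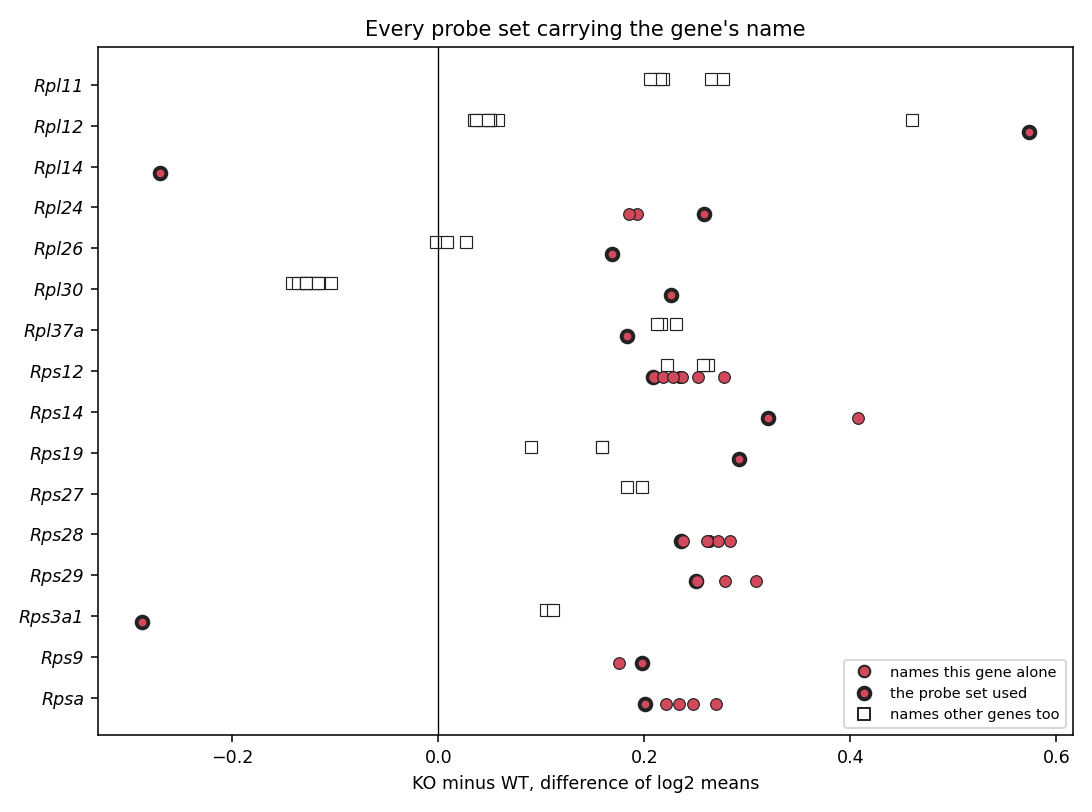
Each mark is 1 probe set that carries the gene's name, placed at its KO minus WT difference of log2 means, with filled circles for probe sets naming that gene alone (thick outline for the one used) and open squares for those naming other genes too. Marks of Rps12, Rps28 and Rps29 lie together between 0.21 and 0.31, while for Rpl12, Rpl30 and Rps3a1 the squares lie apart from the circle.

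Probe sets of this family were therefore also tested one by one, with p-values adjusted over all 17351 above the filter. Of 214 that name a member alone 34 were higher in KO than in WT (15.9%) and 0 lower. Of 238 that name a family gene with other symbols 14 were higher (5.88%) and 0 lower. Over all probe sets 1326 were higher (7.64%) and 2181 lower. Probe sets of a gene share its transcript and often its sequence, so these are not independent counts.

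HET against WT asked whether the loss of 1 copy of Rnh1 is enough for a difference. By limma 0 of 58 members passed in either direction, as did 0% of all 13207 genes tested, whether higher or lower (0% each). At an unadjusted p under 0.05, 0 members were higher and 1 (Rps3a1) was lower, against 116 and 211 of all genes. The members' median was -0.03, with 15 of 58 above 0, against -0.0019 and 49.1% above 0 over all genes. With centred arrays this median was -0.07, after quantile normalization -0.02 and with cyclic loess -0.02. Rpl29, of the large subunit, stood at 11.71, 11.67 and 11.71 for WT, 11.79, 11.80 and 11.78 for HET and 11.67, 11.74 and 11.68 for KO. HET was higher than WT and KO on every array, and its difference from WT of 0.09 ± 0.05 did not pass (limma adjusted p = 0.939). All HET arrays lay above all WT arrays in 2 members (3.45%), Rpl29 and Rpl28 (0.03), against 4.25% of all genes, and below them in 14 (24.1%), against 5.98%.

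KO against HET asked what the loss of the remaining copy adds. Here 11 of 58 members rose and 0 fell, Rpl12, Rpl24, Rpl26, Rpl30 and Rpl37a in the large subunit and Rps9, Rps12, Rps14, Rps28, Rps29 and Rpsa in the small. This is 19% of the members, against 8.17% of all genes that were higher and 13.6% that were lower. At an unadjusted p under 0.05, 21 members were higher and 0 lower, against 1938 and 2693 of the 13207 genes tested. The median was 0.09, with 51 of 58 above 0, against -0.01 and 46.7% of all genes. All KO arrays lay above all HET arrays in 30 members (51.7%), against 15.7% of all genes, and below them in 1, Rpl29, against 21.4%. The KO arrays are the same as in KO against WT, so the comparisons are not independent. The number that rose was 7 without HET 2, 9 with centred arrays, 16 after quantile normalization and 19 with cyclic loess. With the Xist value of each array as a covariate it was 3, Rpl37a, Rps14 and Rps29.

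Large and small subunit genes were set side by side. In KO against WT 2 of 36 large subunit members rose (5.56%) and 4 of 22 small subunit members (18.2%), against 8.27% of all genes, with medians of 0.06 and 0.10. In KO against HET 5 of 36 (13.9%) and 6 of 22 (27.3%) rose, against 8.17% of all genes, with medians of 0.07 and 0.14, and all 22 small subunit members lay above 0, against 29 of 36 large ones. In HET against WT the medians were -0.02 and -0.05. With so few calls and members that move together, the difference between the subunits was described and not tested.

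The per-array means show how that difference compares with the spread between arrays. The large subunit mean was 11.41, 11.42 and 11.41 for WT, 11.38, 11.38 and 11.39 for HET and 11.51, 11.48 and 11.45 for KO. The small subunit mean was 11.70, 11.69 and 11.67 for WT, 11.66, 11.60 and 11.64 for HET and 11.80, 11.79 and 11.78 for KO. For both subunits, in the deposited values, every KO array lay above every WT array and every WT array above every HET array. The large minus small difference within an array was -0.29, -0.27 and -0.26 for WT, -0.27, -0.22 and -0.24 for HET and -0.29, -0.31 and -0.32 for KO. KO overlapped with WT, since WT 1 lay below KO 1, whereas KO and HET did not overlap. The value of this difference depends on the probe sets, and only its change between arrays can be read.

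**Figure D4:**
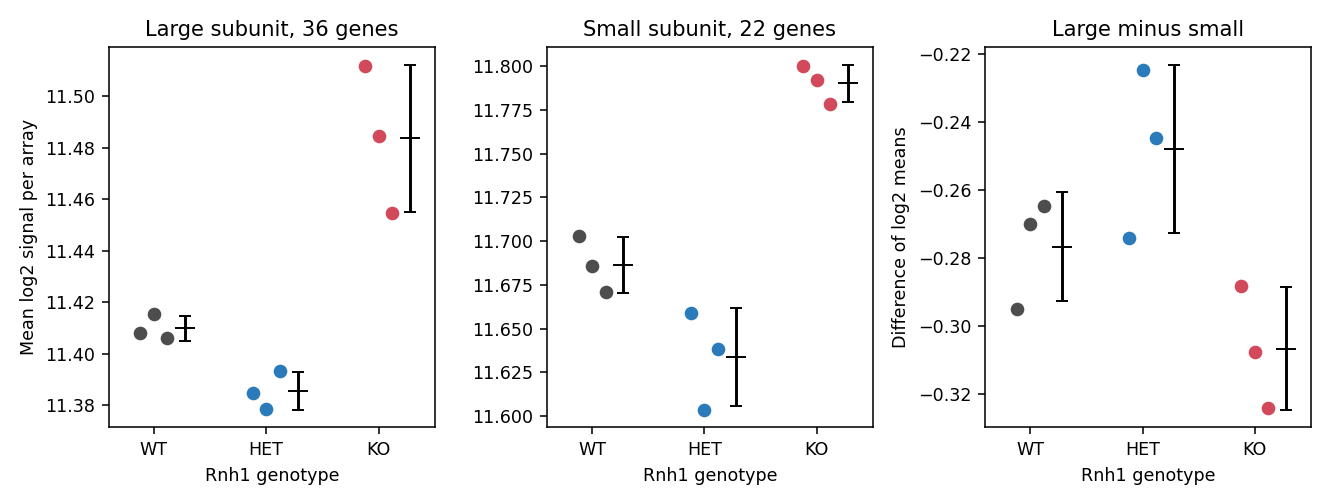
Points are arrays and bars are mean ± SD over the 3 arrays of a genotype, for the mean log2 signal of 36 large subunit genes (left), of 22 small subunit genes (middle) and for the first minus the second (right), on axes that do not start at 0. KO points lie highest in the left and middle panels (deposited values, not centred), and in the right panel KO overlaps with WT but not with HET.

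The members that differed were not among the brightest. Sorted by mean signal over the 9 arrays, the 20 dimmest members (6.51 to 11.64) had a median KO minus WT difference of 0.15, the next 19 (11.70 to 12.16) one of 0.07 and the 19 brightest (12.27 to 13.12) one of 0.02. In these 3 classes 2, 4 and 0 rose against WT and 6, 5 and 0 against HET. Over all genes tested 8.27% rose against WT and 8.17% against HET, so few calls are due in a class of 19. Calls among other genes of like signal were not counted. Signals of different probe sets do not rank the amounts of their mRNAs, so this is an order of signals. Among the 19 brightest, 7 members had the same deposited value on 3 or more arrays, such as Rpl10 at 13.00 on all 3 WT arrays, against 2 of the 20 dimmest, 2 of the 19 between and 13.3% of all genes tested. Of the 134 genes of the whole array with signals at or above the lowest of the 19 brightest members, 14 had such repeated values (10.4%).

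**Figure D5:**
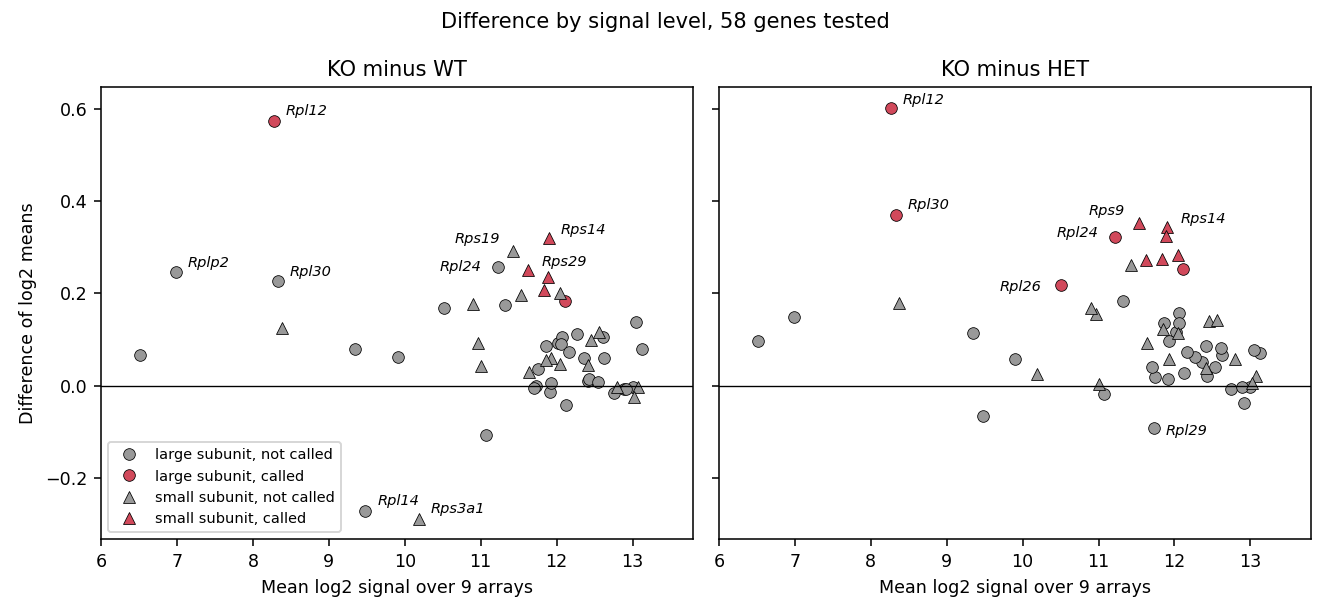
Each symbol is 1 of the 58 genes, at its mean log2 signal over the 9 arrays (horizontal) and its difference of log2 means (vertical), KO minus WT on the left and KO minus HET on the right, with circles for large and triangles for small subunit genes and red for those called. Red symbols lie between 8.27 and 12.11, and differences at signals above 12.27 are small, with a median of 0.02 for KO minus WT.

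X-linked and like-named members gave no call. Rps4x, Rpl10 and Rpl36a, on the X chromosome, stood at 0.06, -0.0030 and 0.09 in KO against WT. Of the paralogs, Rpl10l (0.07), Rpl7l1 (-0.0043) and Rps4l (0.18) did not pass. The ribosomal protein genes with other kinds of names, Fau (-0.03), which makes a fusion of a ubiquitin-like protein and a small subunit protein, and Rps27l (-0.03), did not pass either.

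Genes around the ribosome were read from lists by role. Of 20 other mRNAs with a TOP motif, such as those of elongation factors, 0 were higher and 1 lower in KO against WT, with a median of 0.0053. Over all genes tested 8.27% were higher and 15.2% lower. The 1 lower gene of the list was Ipo7, an importin that carries ribosomal proteins into the nucleus (-0.23 ± 0.06, limma adjusted p = 0.0184). Eif3l (-0.19), Eif3e (-0.17) and Vim (0.11) did not pass. At an unadjusted p under 0.05, 0 of this list were higher and 2 lower, against 1938 and 3087 of the 13207 genes tested. Among 77 mitochondrial ribosomal protein genes, whose ribosome is separate, 1 rose (1.3%) and 4 fell, with a median of -0.06. Both shares were below those of all genes. Mrps16 rose by 0.26 ± 0.05 (adjusted p = 0.0112), while Mrpl15 (-0.25), Mrpl48 (-0.24) and Mrpl14 (-0.22) fell.

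Among 18 regulators of ribosomal protein synthesis 2 rose (11.1%) and 1 fell, against 8.27% and 15.2% of all genes tested, so the share that rose was near the background. The transcription factor gene Myc, which drives ribosome production, had a log2 signal of 10.69, 10.65 and 10.60 for WT, 10.48, 10.32 and 10.62 for HET and 11.14, 10.94 and 11.09 for KO. Its relative Mycn stood at 8.84, 8.85 and 8.98 for WT, 8.73, 8.82 and 8.56 for HET and 9.29, 9.35 and 9.84 for KO. Mtor, the kinase that governs translation of TOP mRNAs, stood at 10.04, 9.99 and 9.88 for WT, 9.99, 9.88 and 9.88 for HET and 9.67, 9.61 and 9.72 for KO. In all 3 genes KO lay apart from WT and HET, above for Myc and Mycn and below for Mtor. Myc rose by 0.41 ± 0.08 (limma adjusted p = 0.0100) and Mycn by 0.61 ± 0.14 (0.0142), and Mtor fell by 0.31 ± 0.06 (0.0109). Eif4ebp2 stood at 0.29 ± 0.10 and did not pass (0.0586).

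Of 11 genes of the p53 response, which is known to follow failed ribosome assembly, 2 rose and 1 fell. Over all genes tested 8.27% rose and 15.2% fell, and with so few genes the counts describe the list. Phlda3 rose by 0.49 ± 0.11 (limma adjusted p = 0.0125) and Sesn2 by 0.31 ± 0.09 (0.0335), Tigar fell by 0.28 ± 0.08 (0.0354), and Bbc3 stood at 0.26 (0.0618). The list's median was -0.0059.

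Markers of the cell types in the sample moved with genotype as well. Beside the counts below, 8.27% of all genes tested rose and 15.2% fell in KO against WT. The summed signal of the 9 visceral endoderm markers, on a log2 scale, was 15.95 to 16.04 in WT, 15.92 to 16.05 in HET and 15.64 to 15.79 in KO, and 3 of 9 fell in KO (Apoa4, Trf and Afp). For 7 primitive erythroid markers it was 14.98 to 15.04, 14.94 to 15.03 and 14.75 to 14.97, and 2 fell (Alas2 and Hbb-y). For 6 extraembryonic mesoderm markers it was 13.47 to 13.56, 13.46 to 13.53 and 13.57 to 13.74, with 2 that rose (Hand1 and Foxf1) and 1 that fell (Postn), and for 6 endothelial markers 12.65 to 12.74, 12.56 to 12.75 and 12.56 to 12.71, with 1 that fell (Tek). Trophoblast markers, 4 of 7 of them dim on every array, had a summed log2 signal of 10.02 to 10.28 in WT, 9.92 to 10.39 in HET and 9.77 to 11.54 in KO. Decidua markers had 9.50 to 10.93, 8.47 to 10.13 and 10.17 to 11.50, with Pgr dim on every array. Markers of the embryo proper, of which Pax6, Pax3 and Myf5 were dim on every array, had 8.98 to 9.25, 9.21 to 9.43 and 9.38 to 9.83, and those of adult maternal blood, of which S100a8, S100a9 and Ms4a1 were dim, 7.62 to 7.97, 7.87 to 8.12 and 7.88 to 8.13. No tested marker of these 4 lists passed in KO against WT, and Prl8a2 was higher in KO than in HET (2.69, limma adjusted p = 0.0431). The part of these shifts in the ribosomal protein values was not tested.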

How the data were processed

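RNA of 9 yolk sac samples (embryonic day 9.5, 3 per Rnh1 genotype) was measured on Affymetrix gene arrays from 100 ng of RNA and 5.5 µg of cDNA, per the labels' protocols. The authors deposited RMA values, 1 log2 signal for each probe set and array. The submitters' processing notes name Expression Console 1.2.1.20 as the software. A genome build for the array annotation was not given in the sources used here. Of 28350 probe sets, 21780 name 1 symbol, and each gene was represented by its probe set with the highest mean. Genes above the 40th percentile of the array on at least 3 of 9 arrays were tested (13207). One linear model over all arrays, with 1 term for genotype and no others, was fitted with limma 3.58.1 (R 4.3.3) and empirical Bayes moderation, and Benjamini-Hochberg adjustment ran over all genes tested. The text calls a gene higher or lower, or says that it rose or fell, at an adjusted p under 0.05. Replicate numbers come from the sample titles. Correlations of deviations between arrays of the same number ran from -0.26 to 0.42 and were over 0.1 in 5 of 9 pairs (all 3 of number 3), not in every pair, so no pairing was used.

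Genes named are the members called in any comparison, those with the smallest unadjusted p per subunit, all measured members of the stalk, 5S, X-linked and paralog lists, and up to 4 genes of each other list. Rpl13, Rpl28 and the exit tunnel and head genes given as ranges were named after their values were seen. The members and lists were chosen with earlier results of these data known. Alternatives changed the filter (none, or the array median), the probe sets (their mean per gene, or with those naming several symbols), the scaling (centred arrays, quantile normalization or cyclic loess) and the fit (array weights, a prior both trended and robust, the 2 genotypes by themselves, a replicate block or Xist as a covariate). Others were an adjusted p under 0.1, each array left out in turn, and WT 2 with KO 1 left out. Testing every probe set by itself was added after seeing the data. The model was tested on simulated data. Promoter windows come from RefSeq (GRCm38.p6), and no protein sequences were used here.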

Additional observations from a re-analysis of the deposited data

Results flagged for a closer look

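Family genes without a probe set of their own took no part in the comparisons. For 17 of them the brightest shared probe set was looked at. That of Rpl11 was called in KO against WT and HET, that of Rps27 against HET only, and that of no other gene in either comparison. Over all probe sets 7.64% were higher in KO than in WT and 7.83% higher than in HET. Rpl11, the partner of Rpl5 in the 5S particle, is named together with Brf2 by 6 probe sets. The brightest stood at 11.99, 11.94 and 11.92 for WT, 11.97, 11.82 and 12.01 for HET and 12.12, 12.16 and 12.21 for KO, with all KO arrays above all others. With probe sets tested one by one it was 0.22 higher in KO than in WT (limma adjusted p = 0.0399) and 0.23 higher than in HET (adjusted p = 0.0329). All 6 passed against WT, at 0.21 to 0.28. Rps27, named together with Rps27rt, was 0.28 higher in KO than in HET (limma adjusted p = 0.0240) and 0.20 higher than in WT, where it did not pass (0.0736). Values were 10.60, 10.55 and 10.64 for WT, 10.56, 10.41 and 10.58 for HET and 10.90, 10.76 and 10.73 for KO.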

How the results depend on the processing

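Each comparison was repeated with 1 choice changed at a time. Of 4167 values of single genes under an alternative, most from genes and comparisons without a call, 3986 kept their side of the threshold. Some of these changed sign, by less than the standard error of the difference. Another 86 newly passed the threshold and 65 no longer passed. The calls themselves were less stable than that total. Of 23 alternatives at an adjusted p under 0.05, 13 lost the call on Rpl26 against HET. Against WT, 12 lost that on Rps12 and 11 that on Rpl37a. The calls on Rps14 in both comparisons and on Rpl37a against HET were lost in 0. In 29 values without a call the sign changed by at least the standard error, and 1 called value reversed. The 1 was Rpl30 in KO against HET with probe sets naming several symbols added (-0.036, adjusted p = 0.837).

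The number of members higher in KO than in WT, 6, became 2 with centred arrays, 11 after quantile normalization, 15 with cyclic loess, 13 with a trended and robust prior, 13 with array weights, 13 at an adjusted p under 0.1, 3 with only the 2 genotypes compared and 3 without WT 2 and KO 1. Leaving out single arrays gave 3 to 7, with 3 without WT 1, WT 2 or WT 3. The number lower, 0, became 2 with centred arrays, array weights or an adjusted p under 0.1, and 0 to 1 without single arrays. Against HET, 11 became 19 with cyclic loess, 17 with the trended and robust prior and 17 at an adjusted p under 0.1. It became 3 with Xist as a covariate, and 7 to 11 without single arrays. Over all genes 1092 were higher against WT as deposited, 577 with centred arrays, 1471 after quantile normalization and 1345 with cyclic loess. Against HET 1079 of all genes were higher as deposited and 1327 with cyclic loess.

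The members' median for KO against WT, 0.07, was 0.0021 with centred arrays, 0.11 after quantile normalization, 0.12 with cyclic loess and 0.06 to 0.08 without single arrays. For HET against WT, -0.03, it was -0.070 with centred arrays, -0.046 with Xist and -0.04 to -0.02 without single arrays. For KO against HET, 0.09, it was 0.064, 0.11 and 0.13 under these 3 scalings and 0.08 to 0.10 without single arrays. The large minus small median was -0.060 with Xist, -0.052 without WT 2 and KO 1, and -0.052 to -0.015 without single arrays for KO against WT (-0.03), 0.044 with array weights and 0.01 to 0.04 for HET against WT (0.02), and -0.10 with Xist and -0.10 to -0.058 for KO against HET (-0.07). The causes were not tested.

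Rnh1 in HET against WT passed with array weights (-0.64, adjusted p = 0.00597), without WT 2 and KO 1 (-0.60, adjusted p = 0.0317) and without KO 1 (-0.62, adjusted p = 0.0222), and ranged from -0.65 to -0.60 without single arrays. With the replicate number as a block, 5 members were higher and 2 lower in KO than in WT (Rpl14, adjusted p = 0.0486, and Rps3a1, 0.0413), and 11 were higher than in HET. Rpl37a (0.0578) and Rps12 (0.0523) lost their calls against WT under this block. The numbers pair no samples by the labels. The 3 arrays per genotype limit what differences could be seen.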
